A study of Homo sapiens with 18 samples.

Results

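Peaks of V5-tagged EHMT1 that were called in the K450RK451R double mutant and in no other line, and whose summits lay in introns of protein-coding genes, numbered 5768 of the 14594 K450RK451R V5 peaks on chromosomes 1 to 22 and X. They were selected on the deposited V5 and H3K9me2 peak calls. A peak was kept if it shared no base with any V5 peak called for WT, K450R or K451R, or with a peak of the 4 H3K9me2 lists (dimethylated lysine 9 of histone H3), which left 13494 peaks (92.5%), called gained here. Its summit then had to lie more than 1 kb from every protein-coding gene start, inside a protein-coding gene and outside all protein-coding exons. Of the gained peaks, 42.7% met these conditions, whereas 6612 lay outside coding genes, 715 within 1 kb of a coding gene start and 399 in coding-gene exons. Seen from the introns, 97.7% of the 5901 intronic peaks of the double mutant were gained, and the other 133 are called shared intronic peaks. Since the peak calls defined the sites, their numbers, positions and peak values are descriptions, and tests were limited to sequence and to the EHMT1 peaks of parental cells.

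LNCaP is a human prostate cancer cell line that responds to androgen. Stable lines carried a lentiviral, doxycycline-inducible V5-tagged EHMT1, as WT or with K450R, K451R or both (arginine in place of lysine at neighbouring residues), and received 0.5 µg/ml doxycycline for 2 days before ChIP with V5 or H3K9me2 antibodies. The parental LNCaP cells served for ChIP of endogenous EHMT1. The V5 signal therefore came from protein made in addition to endogenous EHMT1, and arginine stands in for a lysine that cannot be methylated. Each of the 9 groups had 2 samples and 1 deposited peak list, so no spread between replicates can be given. The p-values below cover no replicate variation, neighbouring peaks are not independent, and all intervals are 95% intervals for counting error only.

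EHMT1 (also named GLP) is a histone methyltransferase that, together with EHMT2 (G9a), places mono- and dimethyl marks on lysine 9 of histone H3, a mark of silent chromatin. EHMT1 has no DNA-binding domain of its own and reaches chromatin through partners, among them REST, the repressor of neuronal genes that binds a long element called RE1. Introns hold most of the transposable elements found within genes. Alu elements descend from the 7SL RNA of the signal recognition particle, LINE-1 elements encode their own reverse transcriptase, and SVA elements are composites that contain a GC-rich tandem repeat.

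The strongest gained intronic sites did not carry the Alu-type sequence that was found at most of the others. Below are the windows reaching 100 bases to either side of the summits of the 3 sites with the highest −log10 q, on the plus strand of hg19, with the 11 bases around the summit in capitals.
PPP1R14C chr6:150518806-150519006 (+): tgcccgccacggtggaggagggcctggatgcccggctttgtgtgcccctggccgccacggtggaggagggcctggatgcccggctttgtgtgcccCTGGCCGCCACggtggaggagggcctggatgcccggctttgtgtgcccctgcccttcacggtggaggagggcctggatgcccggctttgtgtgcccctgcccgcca
TRIO chr5:14347207-14347407 (+): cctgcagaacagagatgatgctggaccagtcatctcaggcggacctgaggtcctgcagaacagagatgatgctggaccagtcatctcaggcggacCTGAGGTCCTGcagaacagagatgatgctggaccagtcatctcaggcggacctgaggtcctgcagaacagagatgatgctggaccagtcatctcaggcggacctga
ATP9B chr18:76960636-76960836 (+): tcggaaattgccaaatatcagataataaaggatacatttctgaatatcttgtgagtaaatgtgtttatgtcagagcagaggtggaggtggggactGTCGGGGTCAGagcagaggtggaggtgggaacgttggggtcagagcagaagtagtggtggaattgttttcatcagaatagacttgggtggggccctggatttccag

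The PPP1R14C window, in intron 1 of a gene encoding an inhibitor of protein phosphatase 1, consisted largely of a tandem repeat: 62.5% of its 10-base strings occurred more than once in the window. In TRIO, which encodes an exchange factor for small GTPases, 97.2% of the strings in the wider window were repeated. No stretch of 51 bases (the read length) in the window shown was unique in the genome. At ATP9B, the gene of a phospholipid flippase, 9.69% of the strings in the wider window were repeated, and the window shown was unique throughout.

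A small group carried the REST element and an EHMT1 peak in parental cells. The windows of the 2 members with an exact match, the central pair of letters not being compared, are shown with the RE1 match in capitals.
PTPRN chr2:220172993-220173193 (+): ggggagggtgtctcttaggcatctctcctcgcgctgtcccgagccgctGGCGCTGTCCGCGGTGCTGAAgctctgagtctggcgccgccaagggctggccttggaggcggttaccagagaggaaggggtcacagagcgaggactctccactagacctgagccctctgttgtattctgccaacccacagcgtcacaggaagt
GRIA2 chr4:158141460-158141660 (+): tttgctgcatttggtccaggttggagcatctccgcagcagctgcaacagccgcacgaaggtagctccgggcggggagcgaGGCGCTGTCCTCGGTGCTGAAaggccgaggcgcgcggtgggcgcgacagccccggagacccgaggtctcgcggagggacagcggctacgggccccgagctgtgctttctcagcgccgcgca

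PTPRN encodes a protein of dense-core secretory vesicles and GRIA2 a subunit of AMPA-type glutamate receptors. Both sites had modest V5 enrichment, with a −log10 q of 3.02 at PTPRN and 2.79 at GRIA2. Though intronic by the gene-start rule, the PTPRN site lay 31 bp and the GRIA2 site 130 bp from an annotated transcript start.

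The gained intronic sites were weakly enriched as a set. Fold enrichment, which equalled the summit pileup plus 1 divided by the local background plus 1, ranged from 2.58 to 12.3 with a median of 4.89. The −log10 q, the minus logarithm of the peak caller's q-value, ranged from 1.31 to 21.3 with a median of 2.79, and the interquartile range was 2.43 to 3.63. The median among all peaks of each of the other 8 lists was between 11.4 and 15.1. Peaks were narrow, with a median width of 116 bp. Pileups, solved from the deposited fold and p-value of each peak, had a median of 9 reads over a background of 0.890, and 2566 sites (44.5%) had a pileup of at most 8. Only 488 sites (8.46%) reached a −log10 q of 5, 24 reached 10, and 1 reached 20. The lists also stopped at different depths of significance: the lowest −log10 p in the WT V5 list was 6.57, and 2880 of the gained intronic sites reached it.

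The 10 highest −log10 q values fell in 9 genes, and none of these sites belonged to a repeat family defined below. PPP1R14C led with 21.3 (chr6:150518778-150518994, intron 1 of 3, fold 10.2, pileup 32), and a second PPP1R14C site had 8.85. Their summit windows held only 17 and 9 unique 51-base stretches. TRIO followed with 19.4 in intron 11 of 56 and ATP9B with 19.3 in intron 9 of 29. NOTCH2, a receptor of the Notch pathway, had 17.5 in intron 3. PTPRN2, which encodes another protein of dense-core vesicles, and SDK1, which encodes a cell adhesion molecule, both had 14.2. TTC34 had 13.8 with the highest pileup of all the sites, 50. The remaining ones were 2 sites in DLGAP2, a postsynaptic scaffold gene, with 13.1 and 12.5, and 1 in TRERF1, which encodes a transcriptional regulator, with 12.7. In 8 of these 10 windows at least 30% of the 10-base strings were repeated, the exceptions being ATP9B and NOTCH2.

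Repeats made up most of the set. The strongest Alu-type site was in HOMER2, the gene of a postsynaptic scaffold protein, with a −log10 q of 11.7. Families were found by comparing the summit windows of every 5th member with each other, and each family was then searched in all windows. Alu-type sequence was present in 3909 summit windows (67.8%, 66.6 to 69.0), SVA-type tandem sequence in 406 (7.04%) and LINE-1 5′ end type sequence in 519 (8.998%). In windows 1 kb to either side of the same summits these shares were 13.5%, 1.24% and 2.11%. The remaining 934 sites (16.2%) belonged to no family. The mix differed outside genes, where 52.4% were Alu-type and 13.99% LINE-1 type. At gained promoter peaks 7.83% were Alu-type and 90.5% had no family. Families were sought among gained intronic sites only, so a repeat common only in another set would count there as no family. The plot of repeat families shows the share of each at the summits and 1 kb away.

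**Figure D1:**
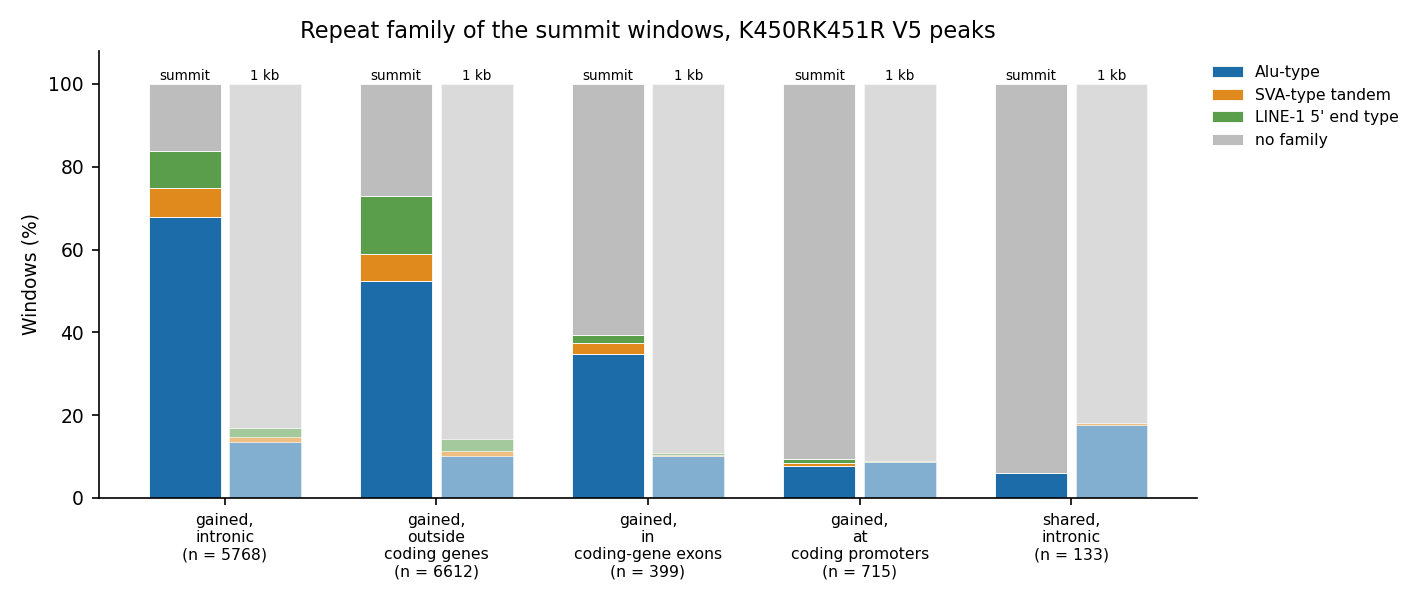
Share of windows (%, y axis; 100 bases to either side of the point) in each repeat family, at the summits (dark) and 1 kb to either side (pale), for 5 sets of K450RK451R V5 peaks (x axis, with the number of peaks). Alu-type windows make up 67.8% of gained intronic sites at the summit and 13.5% at 1 kb, whereas shared intronic peaks have 6.02% at the summit. The families were defined on gained intronic sites alone.

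A direct match to the 7SL RNA gene RN7SL2 gave a measure that did not depend on families found in these peaks. It was found at 3293 gained intronic sites (57.1%, 55.8 to 58.4), compared with 7.72% of the windows 1 kb away. With a stricter search, in windows of 50 bases to either side and at an e-value of 1e-10, the share was 25.1%, and the difference from gained peaks outside genes was 3.68 points. In the main search the share was 44.9% among gained peaks outside coding genes, a difference of 12.2 percentage points (10.4 to 13.9, two-sided Fisher's exact test, Benjamini-Hochberg adjusted p = 2.42e-41 over 9 tests). Windows 1 kb from these peaks outside genes matched in 5.34%, below the 7.72% beside the intronic sites. The test made no allowance for this difference in nearby sequence. Gained promoter peaks had 6.57% (difference 50.5 points, 48.1 to 52.6, adjusted exact p = 8.11e-165) and shared intronic peaks 6.02% (difference 51.1 points, 45.5 to 54.3, adjusted exact p = 3.05e-35). Among the 24 gained intronic sites with a −log10 q of at least 10 the share was 16.7%, and there the difference from outside genes was 13.3 points and did not pass the test (adjusted exact p = 0.118). Intronic peaks of the other lists rarely matched: 0 of 45 for V5 WT, 1 of 46 for K450R, 4 of 78 for K451R, 6 of 306 for parental EHMT1, and between 1.49% and 8.33% in the 4 H3K9me2 lists. Shared intronic peaks are those that overlap the other V5 or H3K9me2 lists, so their low share is not independent of these values.

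Within the element the summits were spread around its middle. Of the Alu-type sites, 3827 had the summit inside the aligned copy. The median summit position was base 147, counted from the 5′ end of the element, and the interquartile range was 99 to 187. Few summits lay near the ends, with 21 in the first 10 bases and 6 in bases 291 to 300, and the fullest interval was bases 181 to 190 with 279 sites. The first 151 bases held 52.3% of the summits. Identity to the reference copy had a median of 90.7% (interquartile range 86.1 to 93.7), and 2570 sites (67.2%) aligned over 280 or more bases.

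**Figure D2:**
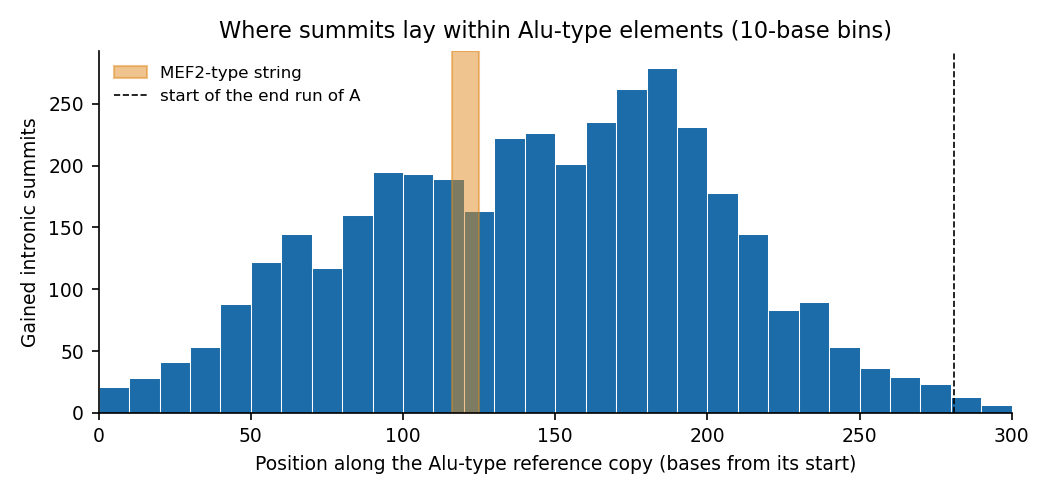
Number of Alu-type gained intronic sites (y axis) by the position of the summit along the aligned element (x axis, bases from its 5′ end, in steps of 10). The counts rise from 21 in the first 10 bases to 279 in bases 181 to 190 and fall to 6 in bases 291 to 300.

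The orientation of the elements in the host genes differed from that of intronic elements in general by less than counting error. Of 7SL-related sites with hosts on 1 strand, 54.6% (52.9 to 56.3, 1765 of 3232) lay antisense to the host gene, and of all 7SL-related stretches in coding introns 54.3% did (320875 of 590594). The introns searched held 602445 such stretches, and 4530 of them (7.52 per 1000) had a gained site within 100 bases. The rate rose with similarity to 7SL RNA overall. In the fifth of stretches with the lowest alignment scores it was 3.70 per 1000 (3.37 to 4.06), and in the fifth with the highest 12.6 (11.98 to 13.2), with 7.08, 5.56 and 8.54 in between.

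Short strings named after transcription factors were searched on both strands of the summit windows. The MEF2-type string CTAAAAATA occurred at 2345 sites (40.7%) and in 3.77% of windows 1 kb away. All of these sites were Alu-type: the string was present in 59.99% of Alu-type windows, where it forms bases 117 to 125 of the reference copy, and in 0 windows of the other families. Among all K450RK451R V5 peaks it occurred in 32.0%. The E2F-type string TTTNNCGC (each N being C or G) was found at 13 sites (0.225%, and 0.225% of windows 1 kb away), and the MYC E-box CACGTG at 1.84% of sites (against 1.64% 1 kb away). Neither of these strings was more frequent at the summits than beside them by more than counting error. A match of letters describes the window and does not show that a factor bound there.

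The LINE-1 type sites lay upstream of LINE-1 coding sequence. For 509 of the 519, sequence related to the first LINE-1 open reading frame, searched with the domesticated copy L1TD1, began within 3 kb, and for 507 it lay downstream. The median distance was 1031 bp and the interquartile range 862 to 1210 bp. Of the 934 sites with no family, 51 had such sequence within 3 kb.

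Base composition and mappability differed among the families. The median GC content was 55.7% at the summits and 40.05% 1 kb away, and the median number of CpG dinucleotides per window 8 and 1.5. By family the GC median was 54.2% for Alu-type, 58.7% for LINE-1 type, 73.6% for SVA-type and 59.7% for sites with no family. No 51-base stretch was unique in 724 windows (12.6%), with 10.3% for Alu-type, 24.9% for SVA-type, 28.7% for LINE-1 type and 7.82% for sites with no family. In gained peaks outside genes this share was 20.98%. Reads from such windows could have come from other copies, and their assignment to the site was not tested.

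Repeat content changed with the strength of the peak. Alu-type sites made up 66.9% of those with a −log10 q under 2.5, 69.6% from 2.5 to 5, 58.4% from 5 to 10 and 16.7% (4 of 24, interval 6.68 to 35.9) at 10 or more. Sites with no family moved the other way, from 18.6% to 83.3%. Tandem windows, in which at least 30% of 10-base strings were repeated, were 8.06% of the weakest class and 62.5% of the strongest. Tandem sequence was nearly restricted to the SVA-type (75.4%) and to sites with no family (25.5%), and was seen at 8 Alu-type and 0 LINE-1 type sites. Of the 50 highest sites, 33 had no family, 11 were Alu-type, 3 SVA-type and 3 LINE-1 type. Tandem sites made up 27 of the 50, and 8 overlapped an EHMT1 peak of parental cells. Shared intronic peaks were tandem in 56.4%.

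**Figure D3:**
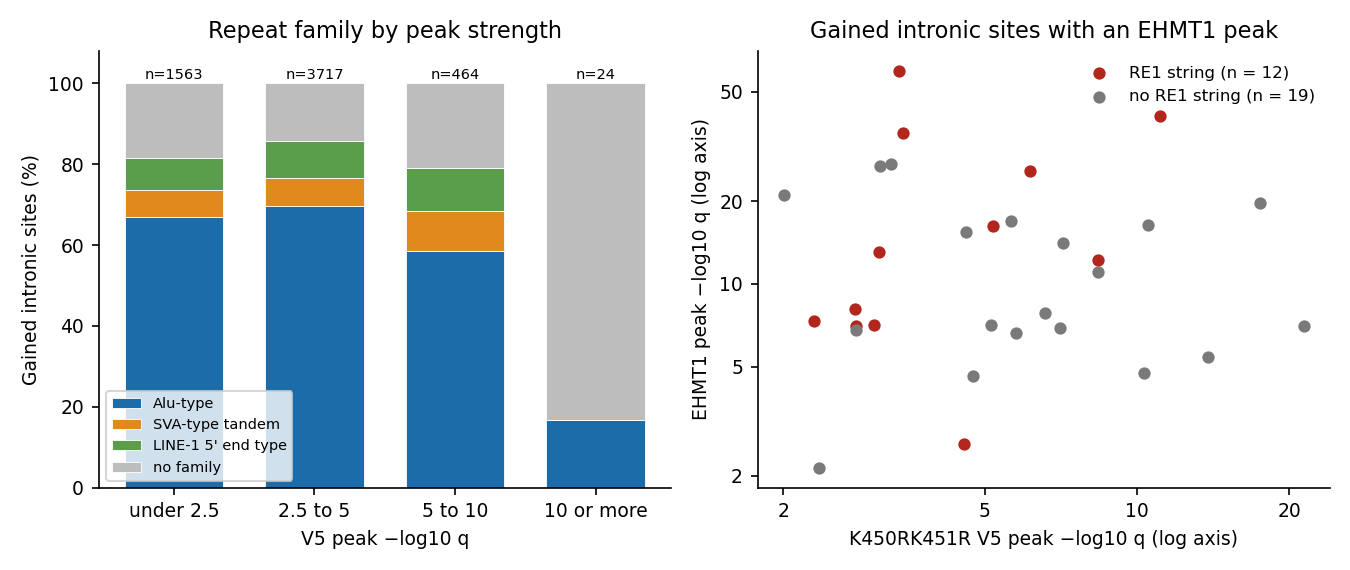
Left, share of repeat families (%, y axis) among gained intronic sites by −log10 q of the V5 peak (x axis, number of sites above the bars); the Alu-type share is 66.9% in the weakest class and 16.7% in the strongest. Right, the 31 sites with an EHMT1 peak in parental cells, V5 −log10 q (x axis, log scale) against EHMT1 −log10 q (y axis, log scale), with the 12 that carry the RE1 string in red and the 19 others in grey.

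EHMT1 peaks in parental cells, which the selection did not use, asked whether endogenous EHMT1 occupied these sites. Of all K450RK451R V5 peaks, 6.77% overlapped one. Among gained intronic sites 31 did (0.537%, 0.379 to 0.762). The share was higher among stronger sites, 3.28% for a −log10 q from 5 upwards and 25% from 10 upwards, and the sets compared differed in strength, with a median −log10 q of 2.79 for gained intronic sites and 13.5 for shared intronic peaks. The share was 3.50% at gained promoter peaks (difference −2.96 points, −4.58 to −1.82, two-sided Fisher's exact test, adjusted p = 2.77e-10) and 57.1% at shared intronic peaks (difference −56.6 points, −64.7 to −48.1, adjusted exact p = 4.03e-110). Shared peaks overlap by definition another V5 or H3K9me2 list, V5-tagged WT EHMT1 among them. That rule can itself place sites held by EHMT1 in the shared set, so the comparison with it is not independent of the selection. The EHMT1 share was 1.12% outside coding genes (difference −0.582 points, −0.907 to −0.263, adjusted exact p = 0.000488). This last difference depended on sites near peaks of other lists. Without gained peaks that had a summit of another V5 or H3K9me2 list within 5 kb, the shares were 0.505% in introns and 0.503% outside genes (difference 0.00257 points, adjusted exact p = 1.0). It also missed the threshold at a fold of at least 5 (−0.524 points, adjusted exact p = 0.0777), with 1 site per gene (−0.338, adjusted exact p = 0.137), and at a −log10 q of at least 10 (−1.14, adjusted exact p = 1.0). Seen from the other side, 28 of the 306 intronic EHMT1 peaks (9.15%, 6.41 to 12.9) overlapped a gained intronic site.

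At the 31 sites with an EHMT1 peak, none of the Alu-type, SVA-type and LINE-1 type families was found, 0 of 31, which allows a share of up to 9.68%, whereas 4834 of the 5768 sites had one, and none of the 31 matched 7SL RNA. Tandem sequence was present at 6 of them, PPP1R14C, TTC34 and PTPRN2 among these, compared with 9.57% of all gained intronic sites. An RE1 string with at most 3 mismatches was present at 12 of the 31 (38.7%, 23.7 to 56.2) and at 7 of the 5737 other sites (0.122%). Their V5 −log10 q had a median of 5.16, against 2.79 for the sites without EHMT1. At least 1 unique 51-base stretch was present in 29 of the 31 windows.

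The highest EHMT1 values among them were as follows. SHANK2, which encodes a postsynaptic scaffold protein, had the highest EHMT1 −log10 q of the 31, 59.6, at a site in intron 15 of 23 where the V5 value was 3.38 and the RE1 string had 3 mismatches. UNC5A, which encodes a netrin receptor, followed with 40.9 in its first intron, with a V5 value of 11.1 and 1 mismatch. FAM24A had 35.3 and 2 mismatches. SYT7, which encodes a synaptic calcium sensor, had 25.7 with a V5 value of 6.14 and 2 mismatches. No RE1 string with 3 or fewer mismatches was found at ZNF19 (a zinc finger gene, EHMT1 −log10 q 27.4), LHFPL4 (26.7, a gene of inhibitory synapses), ATP2B2 (21.1, a plasma membrane calcium pump), NOTCH2 (19.7), SMAD2 (16.9, a mediator of TGF-beta signals) or SEC14L1 (16.4). At PPP1R14C the EHMT1 value was 7.03. EHMT1 and V5 values did not rank the sites alike: SHANK2 was first for EHMT1 with a V5 value inside the interquartile range of all gained intronic sites, and PPP1R14C was first for V5.

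The RE1 string was present at 19 gained intronic sites in all (0.329%, 0.211 to 0.514) and in 1 of 11536 windows 1 kb away. The central pair of letters was left free, a choice made after seeing the strict count, and with that pair fixed the string was present at 8 sites (0.139%). The free string was less frequent than at gained promoter peaks (2.38%, difference −2.05 points, −3.45 to −1.14, two-sided Fisher's exact test, adjusted p = 7.48e-08). The comparisons with gained peaks outside genes (0.181%, difference 0.148 points, −0.0320 to 0.348, adjusted exact p = 0.108) and with shared intronic peaks (1.504%, 2 of 133, adjusted exact p = 0.0901) did not pass the test. Among all K450RK451R V5 peaks the string occurred in 0.439%. Of the 19 sites, 12 had an EHMT1 peak, among them those in PTPRN, GRIA2, DLGAP3 (a postsynaptic scaffold, 12.2 for EHMT1) and DRD2 (the D2 dopamine receptor, 13.1). The 7 without one were in ONECUT2 and MYT1, which encode transcription factors of neural and endocrine cells, GRIK3, a kainate receptor gene, NKAIN1, BNC2, TSNARE1 and TPD52L1. Of the 19 sites, 6 lay within 1 kb of an annotated transcript start.

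Across the genome there were 4.89 gained intronic sites per Mb of eligible intron (4.76 to 5.01, over 1181 Mb) and 4.35 gained peaks per Mb outside coding genes (4.24 to 4.45). By chromosome the density was highest on chromosomes 15 (6.27 per Mb, 5.51 to 7.11), 5 (6.21), 18 (6.03) and 14 (6.01), whose intervals overlap. It was lowest on chromosome 19 (2.28, 1.74 to 2.94), followed by 16 (2.94), X (2.94) and 22 (3.08). The density did not follow that of 7SL-related sequence. Introns of chromosome 19 held the most stretches, 1236 per Mb. They had the lowest rate of stretches with a gained site within 100 bases, 1.48 per 1000 stretches (1.12 to 1.96). Chromosome 18 held 414 stretches per Mb, and 11.4 per 1000 of them (9.61 to 13.5) had a gained site within 100 bases. Copy number of chromosomes in LNCaP cells was not measured here, so a site density and a difference in copy number cannot be told apart.

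**Figure D4:**
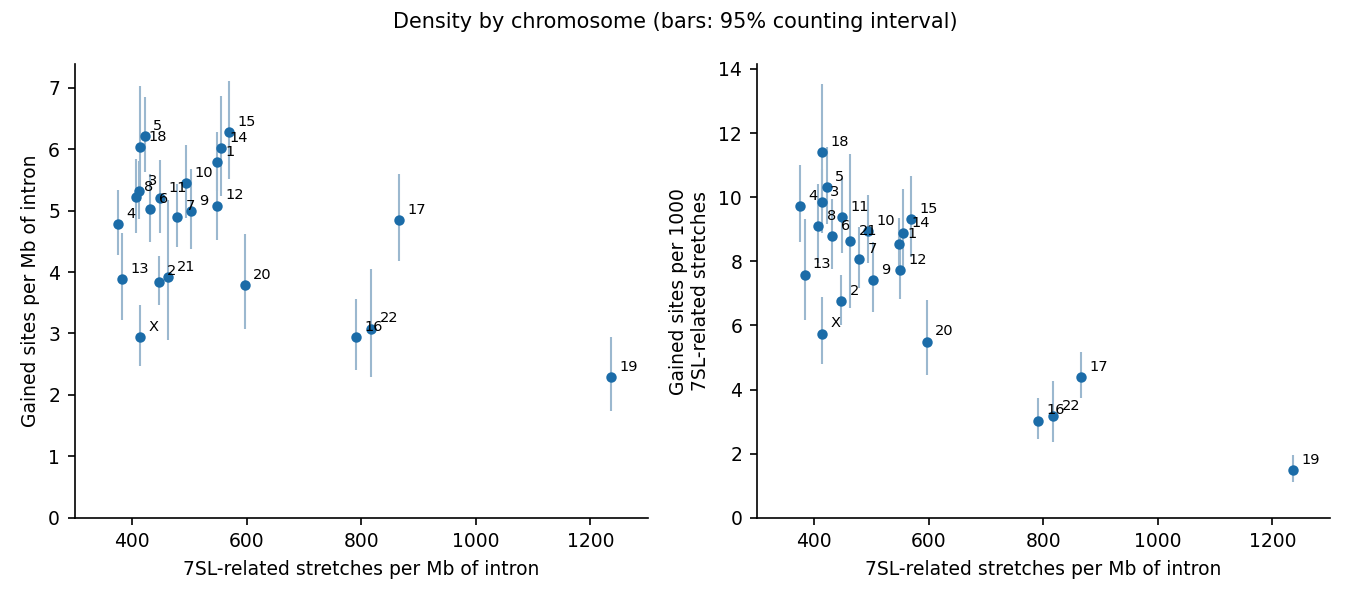
Density of gained intronic sites on each chromosome (points with number or letter, bars are 95% counting intervals) against 7SL-related stretches per Mb of intron (x axis). Left, sites per Mb of intron (y axis). Right, stretches with a gained site within 100 bases, per 1000 stretches (y axis). Chromosome 19 lies at the far right with 2.28 sites per Mb and 1.48 such stretches per 1000, the lowest of both.

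The sites fell in 3567 of the 18510 protein-coding genes with an eligible intron (19.3%). Of these genes, 2244 held 1 site, 743 held 2, 498 held 3 to 5, 71 held 6 to 9 and 11 held 10 or more. Genes with a site had a median intron length of 112 kb and genes without one 17.3 kb. The share of genes with a site was 1.08% below 10 kb of intron, 23.7% from 30 to 100 kb and 95.7% above 1000 kb. The density per Mb rose and then fell over the same range, from 2.65 (2.03 to 3.40) below 10 kb to 5.63 (5.40 to 5.86) from 100 to 300 kb and 3.08 (2.74 to 3.44) above 1000 kb.

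**Figure D5:**
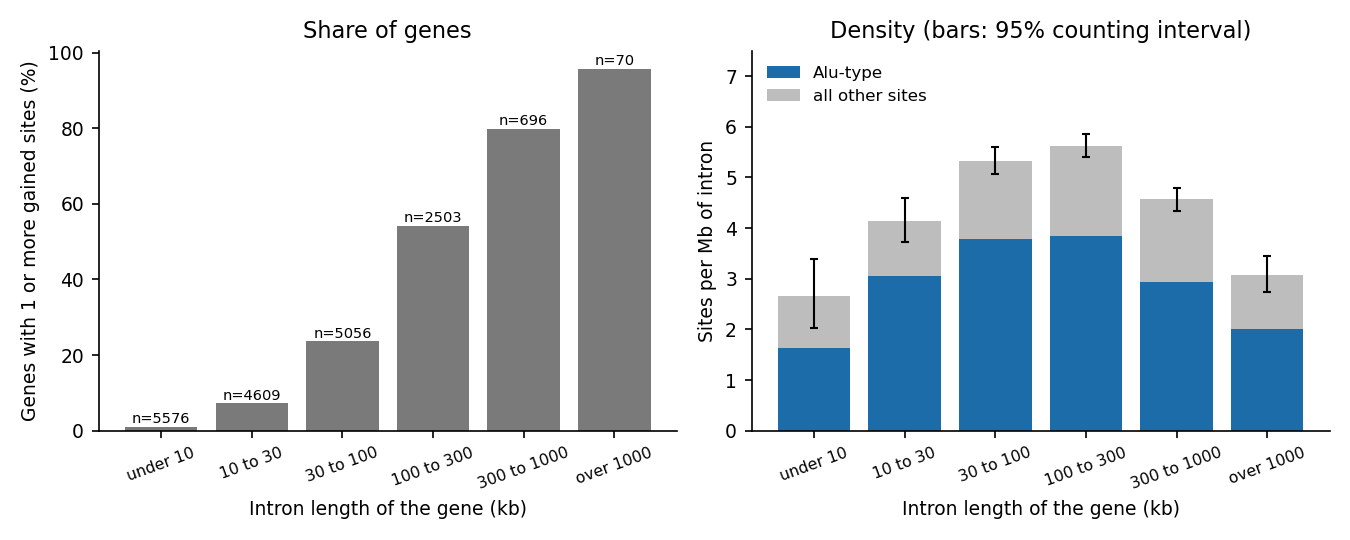
Protein-coding genes by eligible intron length (x axis, kb). Left, share of genes with a gained intronic site (%, y axis, number of genes above the bars), from 1.08% to 95.7%; right, sites per Mb of intron (y axis), Alu-type in blue and all others in grey, with 95% counting intervals for their sum, highest at 5.63 for 100 to 300 kb.

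The genes with the most sites were of different kinds. DLGAP2 and PTPRN2 held 14 each, and 13 of the 14 in each gene belonged to no family. PDE4D, a cAMP phosphodiesterase gene, held 13, of which 5 were LINE-1 type and 3 Alu-type. ADGRV1, an adhesion receptor gene, SMYD3, a methyltransferase gene, and TBC1D5, a regulator of Rab GTPases, held 12 each, with 7, 7 and 6 Alu-type sites. DIP2C held 11, of which 8 had no family, and GPHN, the gene of the inhibitory synapse scaffold gephyrin, held 11.

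Relative to intron length, TTC34 stood first with 10 sites in 141 kb (70.7 per Mb, 33.9 to 130.1), all without a family. NOTCH2 followed with 9 sites (52.4 per Mb, 23.96 to 99.5), of which 6 were Alu-type. EPSTI1 (49.9 per Mb), SCAMP1 (44.3), NOX5 (43.2), PIK3C3 (42.9) and ATP6V1H (40.7) held 5 sites each, and the 5 sites of PIK3C3, the gene of a lipid kinase of autophagy, were all Alu-type. RPH3AL, a gene of regulated secretion, held 7 sites (42.0 per Mb), none with a family. The intervals of these 8 genes overlap. At the other end, IL1RAPL2 had 0 sites in 1195 kb of intron, which allows up to 3.09 per Mb, and NRG1, DCC, DPYD and ENSG00000285713 had 0 sites in 1194, 1182, 909 and 869 kb.

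Gene lists chosen for the study's subjects are given by counts alone, beside the 4.91 site-gene pairs per Mb of all coding genes and the 19.3% of genes with a site. Regulators of H3K9 methylation and EHMT partners had sites in 8 of 24 genes, 12 sites or 6.14 per Mb (3.17 to 10.7). EHMT1 itself held 3, with −log10 q values of 4.80, 5.80 and 5.53, all in tandem sequence without a single unique 51-base stretch. KDM4C, an H3K9 demethylase gene, also held 3, and CBX5 (the HP1 alpha protein), SUV39H2 (an H3K9 methyltransferase), RCOR1 (a partner of the demethylase LSD1 and of REST), CDYL, ATF7IP and ZNF644 held 1 each. The CBX5 site lay 26 bp from an annotated transcript start. EHMT2, REST and KDM1A had none.

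Luminal prostate and androgen-responsive genes had sites in 6 of 23, with 9 sites or 4.32 per Mb (1.98 to 8.21). NCOA2, a coactivator of nuclear receptors, held 4, all Alu-type. FKBP5, ERG, ACP3, GRHL2 and TRPM8 held 1 each, and NCOR1 and TMPRSS2 none. E2F and replication genes had sites in 3 of 30, at 2.13 per Mb (0.439 to 6.23). Of these, POLA1 (a DNA polymerase subunit) and RFC1 (a clamp loader subunit) held 1 each. The RFC1 site lay 54 bp from an annotated transcript start.

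WNT pathway genes had sites in 7 of 24, with 16 sites or 7.12 per Mb (4.07 to 11.6), an interval that includes the value for all genes. GSK3B (the kinase of the beta-catenin destruction complex), TNKS (a tankyrase that controls axin) and WLS (the carrier of secreted WNT ligands) held 3 each. APC, BTRC and TCF7L2 held 2 each and CTNNB1, the beta-catenin gene, 1. The CTNNB1 site lay 141 bp and 1 of the APC sites 154 bp from a start of another annotated transcript. mTORC1 genes had sites in 5 of 23, at 4.67 per Mb (1.88 to 9.61), with 2 each in RICTOR and SESN1 and 1 each in RPTOR, RPS6KB1 and RRAGB. The RPS6KB1 site lay 216 bp from an annotated transcript start.

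Neuronal REST targets had sites in 5 of 24 genes, 11 sites or 2.21 per Mb (1.10 to 3.95), below the rate of all coding genes. Only the site in GRIA2 shown above had an EHMT1 peak, and NRXN3, RIMS2 and SCN3A held 3, 3 and 2 sites. A site in NRXN3 lay 480 bp from an annotated transcript start. All 20 very long adhesion and synaptic genes held sites, 77 in all, of which 61 were Alu-type, at 2.37 per Mb (1.87 to 2.96). Among all genes with over 1000 kb of intron, 95.7% held a site, at 3.08 per Mb (2.74 to 3.44). CNTN4 held 8 and DLG2 7. Of 6 genes that the study names, a list chosen on these samples, PPP1R14C alone held any. No overlap of these lists was tested.

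Sites lay all along the genes. Of the 5037 sites in introns of a canonical transcript, 1178 (23.4%, 22.2 to 24.6) lay in the first intron, which made up 24.2% of the intron sequence, and 2245 (44.6%) in the fifth or a later intron, with 42.4%. The first intron had 4.56 sites per Mb (4.30 to 4.83) and the fifth or later 4.96 (4.76 to 5.17). The median position was 47.4% of the way along the gene, and the median distance to a coding gene start 56.8 kb.

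The sites nearest the 1 kb limit were METTL9 at 1012 bp, HSPH1 at 1018 bp and KIT at 1030 bp from the gene start. Just outside the set lay peaks at CEP112 (1000 bp), RAD21L1 (983 bp) and ANKMY2 (948 bp). The limit used the start of each gene, and 335 sites (5.81%) lay within 1 kb of the start of some annotated transcript, KIT among them at 183 bp. Of these, 52.8% were Alu-type and 36.7% had no family, compared with 68.7% and 14.9% of the other 5433, and 9 had an EHMT1 peak.

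Most sites lay far from each other. The median distance to the nearest gained intronic site was 68.3 kb (interquartile range 21.4 to 198 kb), and 380 sites (6.59%) had another within 1 kb. The nearest summit of another V5 or H3K9me2 list was a median of 3225 kb away, and 29 sites had one within 5 kb. An annotated non-coding gene also covered 496 of the sites, 440 of them under a long non-coding RNA gene, and 259 lay in 2 or more coding genes.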

How the data were processed

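ChIP-seq peak lists were analysed for V5 and H3K9me2 in 4 LNCaP lines and for EHMT1 in parental cells, 18 samples in 9 groups. Per the submitters' processing notes and the study's methods, 51 nt single-end reads were checked with FastQC 0.11.9, mapped to hg19 with BWA 0.7.9a and SAMtools 1.2, and peaks were called with MACS2 2.1.0. How the 2 samples of a group were combined into 1 list is not given in the sources used here, and read totals were not analysed here. The authors deposited for each peak a fold enrichment (the ratio of summit pileup plus 1 to local background plus 1, as the values show), −log10 p, −log10 q (a significance score) and a summit offset. No peak height was normalised between lists here.

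Groups followed the sample labels. The sites and gene lists were chosen with earlier results of these data known. Genes came from GENCODE version 44 mapped to GRCh37. Pileup and background were solved from the deposited fold and −log10 p, with an error of at most 1.83e-05 in −log10 p. Windows reaching 100 bases to either side of the summits were compared by blastn with RN7SL2 (e-value 1e-05), used because RN7SL1 is not listed under that name in this annotation, and with each other (1e-10). A family needed at least 20 windows of the 1154 sampled. The Alu-type family is the one that matches RN7SL2, the LINE-1 type was named after its neighbouring open reading frame, and the SVA-type name rests on textbook features of its GC-rich tandem only. The RE1 string has 21 letters, with up to 3 mismatches and the central pair free, a choice made after seeing the strict count. Intron sequence counted was more than 1 kb from coding gene starts and outside coding exons.

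Differences between shares were tested with Fisher's exact test (two-sided) and Benjamini-Hochberg adjustment over 9 tests, with Newcombe intervals for differences, Wilson intervals for shares and exact Poisson intervals for densities. Named members were those with the 10 highest −log10 q, the 3 on each side of the 1 kb limit and the 10 with the highest EHMT1 −log10 q. Named genes were the 8 with most sites, the 8 with most per Mb (3 or more sites and at least 100 kb of intron), the 5 longest with 0, and the listed genes. The sites without EHMT1 that carry RE1, and the REST-element genes beyond the 10, were named after their values were seen. Alternatives were stricter q, fold and p limits, other overlap, distance and exon rules, unique sequence, other windows and 1 site per gene. Functions tested on simulated data were the blastn search against the signal recognition particle RNA gene, the mismatch count and the pileup solution. Those for overlaps, tandem content, Fisher's exact test and Wilson intervals were tested in the same way. Python 3.11.15, pandas 2.3.3, NumPy 2.4.6, SciPy 1.17.1, statsmodels 0.14.6, pysam 0.24.0, BLAST+ 2.17.0 and matplotlib 3.10.9 were used. Some sequences and genes are not reported here.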

Additional observations from a re-analysis of the deposited data

How the results depend on the processing

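Of 115 values recomputed under 14 alternatives, 80 were counted as unchanged. Counts, shares and densities had to stay within a margin of the main value. For the differences only the sign and the side of the test threshold had to stay, and no margin was applied to their size. Thus 7SL differences of 3.68 and 17.4 points, against 12.2 in the main run, were among the 80. The match to the Alu-type copy, the RE1 string with a free central pair, for which the strict string is the alternative, and the limit by transcript start were chosen after seeing the data. At a −log10 q of at least 5, 488 sites were left (0.413 per Mb), with EHMT1 at 3.28%, 7SL-related sequence at 48.0% and RE1 at 1.02%. At a −log10 q of at least 10, 24 sites were left (0.0203 per Mb), with EHMT1 at 25%, 7SL at 16.7% and RE1 at 4.17%. Here the 7SL difference from outside genes (13.3 points) and the EHMT1 difference (−1.14 points) no longer passed the test, with few sites left. A fold of at least 5 left 2508 sites (2.12 per Mb, 7SL 59.9%, EHMT1 difference −0.524 points, no longer past the threshold). The lowest −log10 p of the WT list left 2880 (2.44 per Mb, EHMT1 0.868%). With 1 site per gene, EHMT1 was at 0.781% (difference −0.338 points, no longer past the threshold) and 7SL at 59.4%. Without peaks near a summit of another list (5 kb), the EHMT1 difference reversed to 0.00257 points; the outside share fell to 0.503%. Windows of 50 bases to either side together with an e-value of 1e-10 gave 25.1% for 7SL (difference 3.68 points), the Alu-type copy 67.8%, and the strict RE1 string 0.139%. The 7SL difference was positive in every alternative run, from 3.68 to 17.4 points. No paired analysis was possible because a single peak list stood for both samples of a group, and for the same reason no replicate could be left out. The unknown combination of replicates, the weak pileups and reads shared among repeat copies limit these values.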
